A study of Mus musculus with 11 samples.

Results

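The collagen genes of the fetal mouse gonad were followed here as a family. The members were chosen by name: every probe of the array whose annotated symbol reads Col, a number, the letter a and a number. This took 91 of 45281 probes, for 41 genes. Collagens are secreted as triple helices of 3 polypeptide chains, and chains of different genes combine in fixed ways, so that the RNA of each partner has to be present in the same cell for a heterotrimer to form. Fibril-forming types give tissues tensile strength, type IV builds the sheets of basement membranes, type VI makes beaded filaments around cells, and the FACIT types (fibril-associated collagens with interrupted triple helices) sit on the surface of fibrils. In the fetal testis, collagens are best known from the interstitium and from the basement membrane that encloses the cords in which germ cells and Sertoli cells lie.

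RNA was measured on 11 Illumina bead arrays. Germ cells carrying a Pou5f1-GFP reporter (GFP, green fluorescent protein) were sorted from gonads at the embryonic stage E11.5, labelled male/female, and from males at E13.5 and E15.5, with 3 arrays each. Cells without GFP from E13.5 male gonads, called non-germ cells below, served as the labelled control, with 2 arrays. All samples carried the strain label (CBA/CaJ X C57BL/6J)F16+, crossed to Hsd:ICR(CD-1), and no other allele or treatment is labelled. Replicates are labelled biological, but the number of embryos behind each is not given in the sources used here. GFP was the labelled selection, so each fraction can hold other cells, and the GFP-negative one is a mixture of all remaining gonad cells.

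Between 14860 and 18657 probes were detected per array. The labels were checked against 10 germ cell markers, of which 9 or 10 were detected on each germ array and 2 and 3 on the non-germ arrays. E15.5 replicate 2 stood apart. It detected 10 of 10 measured gonadal interstitial markers and 9 of 11 Sertoli markers, as against 3 and 4 interstitial and 3 and 7 Sertoli markers on E15.5 replicates 1 and 3, and 10 and 10 interstitial and 11 and 11 Sertoli markers on the non-germ arrays. Summed interstitial marker signal on the linear scale was 9787 in replicate 2, 1775 and 1958 in replicates 1 and 3, and 18441 and 18298 in non-germ cells. Replicate 2 was therefore given a coefficient of its own in the fit, so that the E15.5 group below is replicates 1 and 3 unless stated, and its values are given apart. In sorted samples, fewer cells of a type and less RNA per cell cannot be told apart.

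Of the 41 genes, 32 had a probe detected (detection p below 0.01) on at least 2 arrays and were tested. By the probe that represents each gene, 8 of these were detected on no germ array of the fit (Col1a2, Col4a4, Col5a2, Col7a1, Col8a1, Col11a1, Col15a1 and Col23a1) and 2 on no non-germ array (Col11a2 and Col25a1). A second Col25a1 probe was detected on both non-germ arrays and on 1 germ array of the fit. A probe detected in 1 group alone passed through the group in which it is high, so counts over the tested genes do not stand for all 41. The 9 genes without such a probe were Col4a3, Col5a3, Col6a4, Col6a5, Col6a6, Col10a1, Col17a1, Col19a1 and Col28a1. Of the 38 probes that did not pass, 32 were detected on 0 arrays and 6 on 1 array. Levels below are normalized log2 intensities, which compare arrays for one probe and not probes with each other, and differences are of group means on that scale with the standard error (SE) of the fit. A gene was called at an adjusted p below 0.05 from limma's moderated test, with Benjamini-Hochberg adjustment over all 21943 probes tested.

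**Figure D1:**
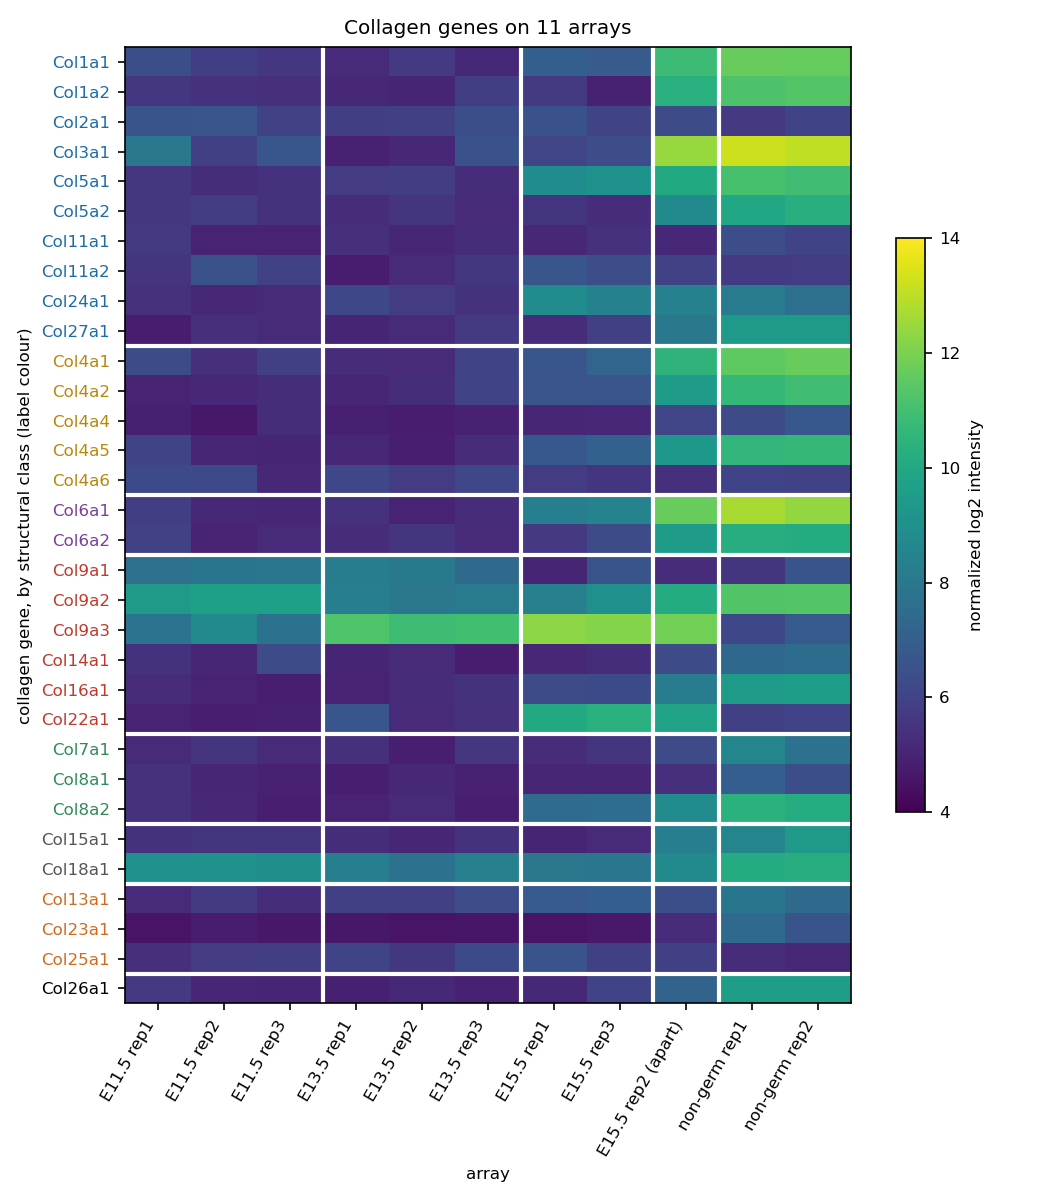
Normalized log2 intensity (colour) of the 32 tested collagen genes (rows, by structural class) on 11 arrays (columns, germ cells by stage, then E15.5 replicate 2, then non-germ cells). Most rows are dark on the E11.5 and E13.5 germ arrays and bright on the non-germ arrays, Col9a3 and Col22a1 are brightest in E15.5 germ cells, and E15.5 replicate 2 resembles the non-germ columns in many rows, detecting 27 of 32 genes.

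Germ cells at E13.5 held far less collagen RNA than the non-germ cells beside them. Of the 32 genes, 25 were lower, 3 higher (Col9a3, Col9a1 and Col25a1) and 4 not called (Col2a1, Col4a6, Col11a2 and Col22a1). Over all 11598 genes tested, 27.5% were lower and 31.7% higher by the same rule. The median difference of the collagen genes was -3.05, beside 0.12 for all genes, and -2.44 with genes that a group did not detect set to their bound (explained below), or to 0 where there is none. Values of the groups did not overlap for 29 of the 32, where 74.5% of all genes did not overlap. The E13.5 germ arrays detected 5, 4 and 9 of the 32 collagen genes, and the non-germ arrays 28 and 30. Of all 45281 probes those germ arrays detected 14860, 16357 and 16165, and the non-germ arrays 18018 and 18055. The 8 genes detected on no germ array of the fit passed the filter without those arrays, so part of this gap is built in. E15.5 replicate 2 enters this comparison through normalization, the detection filter and the choice of probe alone. With that array put back in its group the same 28 genes were called, where 30.2% of all genes were higher and 26% lower.

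**Figure D2:**
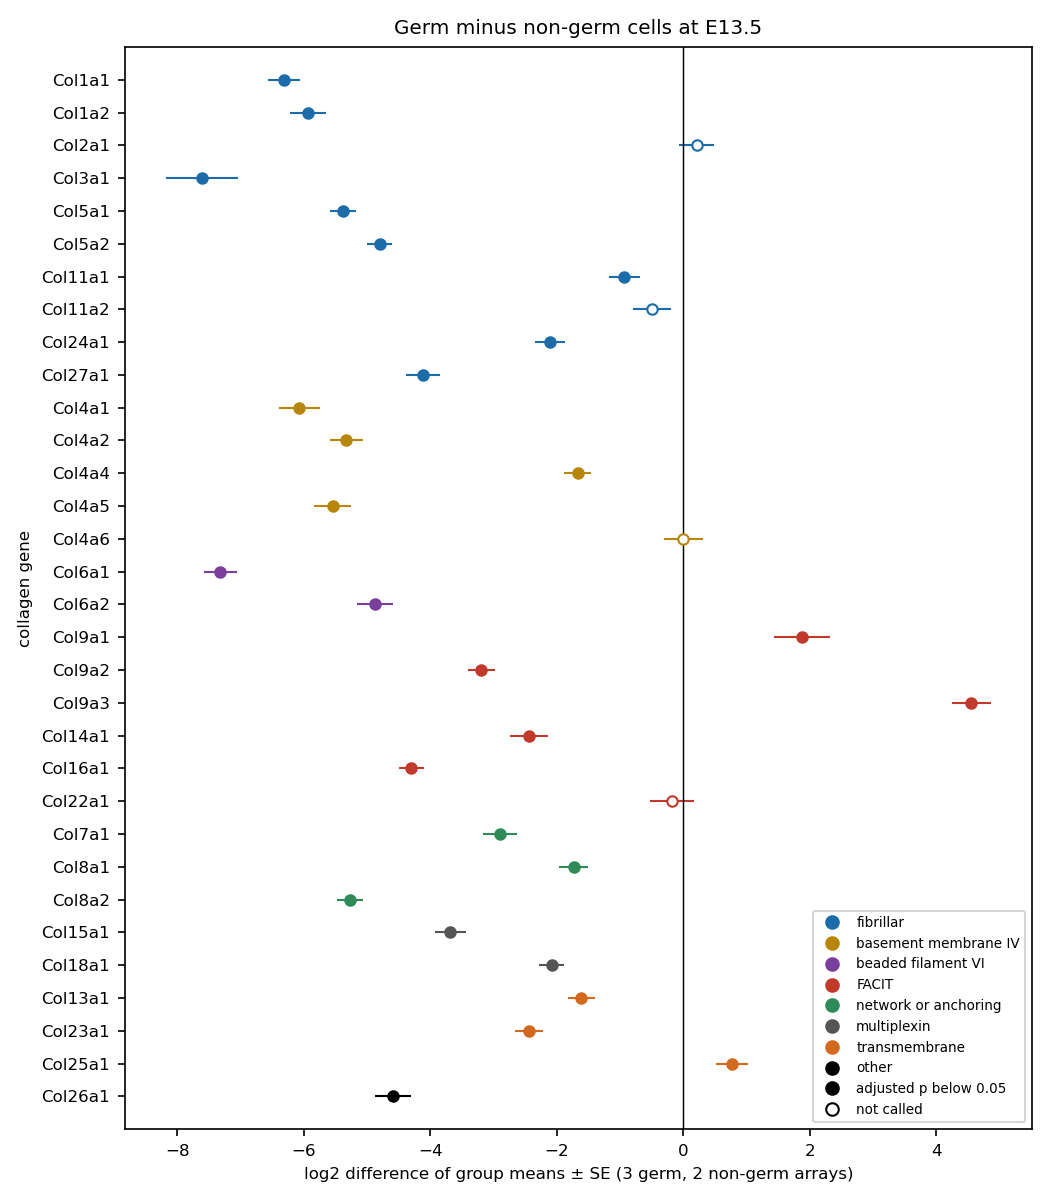
Log2 difference of mean intensity, 3 germ minus 2 non-germ arrays at E13.5, for each tested collagen gene, with the SE of the fit as bars; filled points have an adjusted p below 0.05 and colours mark structural classes. Points lie left of 0 for most genes, down to -7.61 for Col3a1, while Col9a3 at 4.55, Col9a1 at 1.88 and Col25a1 at 0.77 lie to the right. A point for a gene that 1 group did not detect is the fitted value, for which the text gives a bound, except for Col25a1.

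Fibrillar collagens, the load-bearing class, made up 10 of the 32, and 8 of them were lower in germ cells (80%, beside 27.5% of all genes). Col3a1, the chain of type III collagen found with type I in soft tissues, read 4.93, 5.14 and 6.53 in E13.5 germ cells, against 13.23 and 13.05 in non-germ cells. Each germ value lay below each non-germ value, and the difference was -7.61 ± 0.57 (SE, n = 3 and 2, limma adjusted p = 1.4e-06). It was detected on 1 of the 3 E13.5 germ arrays.

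Col1a1 and Col1a2 encode the chains of type I collagen, the main protein of tendon, bone and skin. Col1a1 read 5.21, 5.70 and 5.16 in germ cells at E13.5, below detection on every array, against 11.69 and 11.64 in non-germ cells. A probe that no array of a group detected has only an upper limit there, so the fold is given against the lowest detected value on those arrays, and Col1a1 was at least 45.2-fold lower (adjusted p = 2.06e-08). Col1a2 read 5.11, 5.05 and 5.86 in germ cells, against 11.21 and 11.33 in non-germ cells, at least 34.4-fold lower (adjusted p = 6.04e-08).

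Type V collagen, which nucleates fibrils and limits their width, followed the same pattern. Col5a1 was at least 28.6-fold and Col5a2 at least 15.7-fold lower in E13.5 germ cells, with none of the germ arrays detecting either. Of the other fibrillar chains, Col27a1 was at least 9.57-fold lower and Col24a1 at least 3.31-fold lower. Further kept probes of Col27a1 gave -1.38 and -1.17, both called lower with no bound above 1. Col11a1 was at least 1.01-fold lower (adjusted p = 0.00792), close to the limit of detection in non-germ cells, and this call was lost in the authors' rescaled values (adjusted p = 0.0814). Col2a1, the cartilage collagen, differed by 0.21 ± 0.27 and was not called, and neither was Col11a2, which no array of either group detected.

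Promoter sequence is shown for 4 fibrillar genes that differ in course: Col3a1 and Col1a2, which were not called between any germ cell stages of the fit, and Col5a1 and Col24a1, which rose there at E15.5. Each line runs from 120 bases before to 20 bases after the gene start annotated by RefSeq (GRCm38.p6, all on the plus strand), at chr1:45311418-45311557 for Col3a1, chr6:4505498-4505637 for Col1a2, chr2:27886305-27886444 for Col5a1 and chr3:145292352-145292491 for Col24a1. Capitals mark matches to one of 4 motifs searched on both strands, namely the TATA box (TATAAA), the CCAAT box (CCAAT), the GC box (GGGCGG) and the cyclic AMP response element (TGACGTCA), none of which overlaps another in these stretches.
Col3a1: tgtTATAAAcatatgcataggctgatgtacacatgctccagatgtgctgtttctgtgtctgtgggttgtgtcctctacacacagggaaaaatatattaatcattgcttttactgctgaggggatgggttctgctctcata
Col1a2: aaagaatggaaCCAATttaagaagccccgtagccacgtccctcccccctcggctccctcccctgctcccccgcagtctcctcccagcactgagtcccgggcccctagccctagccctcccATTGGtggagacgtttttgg
Col5a1: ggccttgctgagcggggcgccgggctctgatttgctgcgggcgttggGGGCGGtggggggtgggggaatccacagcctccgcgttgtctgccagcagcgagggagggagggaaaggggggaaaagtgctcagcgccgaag
Col24a1: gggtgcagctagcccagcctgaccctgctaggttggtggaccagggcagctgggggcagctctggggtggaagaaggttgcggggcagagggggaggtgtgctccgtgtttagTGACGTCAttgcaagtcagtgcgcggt

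RefSeq gave windows of 250 bases before to 50 after the start for 25 of the 32 genes (28 windows). In these the GC box was found in 19 of 28 windows, beside 35.7% of all 32851 windows of that length. A CCAAT box was found in 10 of 28, beside 37.4% of all windows, and TATAAA in 3 of 28, beside 13.6%. The cyclic AMP response element was found in 1 of 28, that of Col24a1, where its first base lies 7 bases before the start, and in 1.79% of all windows. A match describes these letters only and is not a measured binding site. Col1a1, Col2a1, Col5a2, Col9a3, Col14a1, Col22a1 and Col26a1 had no window in the table used.

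Basement membrane collagen IV was measured for 5 of its 6 chains, and 4 of these were lower in E13.5 germ cells (80%, beside 27.5% of all genes). Col4a1 and Col4a2 encode the partners of the ubiquitous trimer. Their genes are neighbours on opposite strands, and their promoter windows overlap by 78 bases. Col4a1 read 5.27, 5.22 and 6.04 in germ cells, against 11.502 and 11.66 in non-germ cells, at least 42.7-fold lower (adjusted p = 1.36e-07). Col4a2 read 5.06, 5.33 and 6.03 in germ cells, against 10.67 and 10.92 in non-germ cells, at least 24.8-fold lower (adjusted p = 7.75e-08). The levels of both chains were below detection on all 3 germ arrays.

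The minor type IV chains divided. Col4a5, mutated in X-linked Alport syndrome, was at least 22.1-fold lower, and Col4a4 at least 1.27-fold lower, near the limit of detection. Col4a6 is the X-linked neighbour of Col4a5. Its brightest probe gave a difference of 0.00 ± 0.31, whereas its 3 other kept probes, detected on both non-germ arrays and on no germ array, were all called lower in germ cells (adjusted p = 5.86e-06, 7.01e-06 and 0.00304), by at least 1.51-fold and 1.73-fold for 2 of them and with no bound above 1 for the other.

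Collagen VI, the beaded filament type, was measured through Col6a1 and Col6a2, which are neighbouring genes and partners in its heterotrimer. Col6a1 read 5.43, 4.97 and 5.28 in E13.5 germ cells, against 12.69 and 12.39 in non-germ cells, at least 83.1-fold lower (adjusted p = 1.02e-08). Col6a2 read 5.25, 5.51 and 5.24 in germ cells, against 10.23 and 10.17 in non-germ cells, at least 16.4-fold lower (adjusted p = 2.52e-07). Its other kept probe was also called lower, but by -0.62 (adjusted p = 0.0192) with no bound above 1.

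Among the FACIT collagens, 3 were lower and 2 higher of 6 (50% and 33.3%, beside 27.5% and 31.7% of all genes). The chains of type IX differed in direction. Type IX collagen, best known on cartilage fibrils, is assembled from the products of Col9a1, Col9a2 and Col9a3. Col9a3 read 11.23, 10.91 and 10.97 in E13.5 germ cells, against 6.16 and 6.83 in non-germ cells, a difference of 4.55 ± 0.31 (adjusted p = 7.29e-07), or 23.4-fold higher in germ cells. Col9a1 read 8.24, 8.05 and 7.45 in germ cells, against 5.50 and 6.58 in non-germ cells, a difference of 1.88 ± 0.44 (adjusted p = 0.00402). Col9a2 read 8.28, 7.98 and 8.09 in germ cells, against 11.29 and 11.33 in non-germ cells, a difference of -3.19 ± 0.21 (adjusted p = 6.18e-07). Each chain separated the groups without overlap, as 74.5% of all genes did, and all 3 were detected on every E13.5 germ array. The Col9a1 call was lost without non-germ replicate 1 (1.34, adjusted p = 0.0571), and a dimmer second probe of Col9a1 gave 0.20, not called. For Col9a3, only the probe given here passed the filter. Another was detected on no array, with means of 4.90 in E13.5 germ cells and 5.49 in non-germ cells. A further Col9a3 probe was detected on 1 non-germ array alone, with means of 5.19 and 5.96.

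The other FACIT members were Col16a1, at least 10.3-fold lower in germ cells, and Col14a1, at least 2.44-fold lower. Col22a1, a collagen of tissue junctions such as that of muscle and tendon, differed by -0.18 ± 0.35 with overlapping values. E13.5 germ replicate 1 read 6.66 there and the others 5.22 and 5.41, against 5.88 and 6.01 in non-germ cells. Without that replicate the difference was -0.64 (adjusted p = 0.0153).

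In the remaining classes, Col8a2, one of the type VIII chains of short-chain networks, read 5.01, 5.24 and 4.83 in E13.5 germ cells, against 10.39 and 10.21 in non-germ cells, at least 17.5-fold lower. Its partner Col8a1 was at least 1.46-fold lower, and Col7a1, which forms anchoring fibrils below epithelia, at least 3.99-fold lower. The multiplexins carry the anti-angiogenic fragments restin and endostatin at their ends. Col15a1 was at least 6.97-fold lower, whereas Col18a1 was detected on every germ array at 8.26, 7.72 and 8.34, against 10.16 and 10.21 in non-germ cells, a difference of -2.08 ± 0.20 (adjusted p = 8.67e-06).

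Transmembrane collagens stay in the plasma membrane with their triple helices outside the cell. Col13a1 differed by -1.61 ± 0.22 (adjusted p = 0.000121) and Col23a1 was at least 1.81-fold lower in germ cells. Col25a1 read 6.00, 5.63 and 6.25 in germ cells, against 5.26 and 5.12 in non-germ cells, and was called higher (adjusted p = 0.0229). Its germ mean was 1.1-fold above the non-germ limit of detection, but it includes undetected readings and is no lower bound. The Col25a1 call rested on a level detected on 1 of 3 germ arrays. It was lost when any of 4 arrays (germ replicates 1 and 3, non-germ replicates 1 and 2) was left out (adjusted p up to 0.123). It was also lost without background correction (adjusted p = 0.0781) and in the authors' rescaled values (adjusted p = 0.0839). The other Col25a1 probe gave -0.85, not called (adjusted p = 0.0673). Col26a1 was at least 10.5-fold lower in germ cells, although a second probe gave -0.05.

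**Figure D3:**
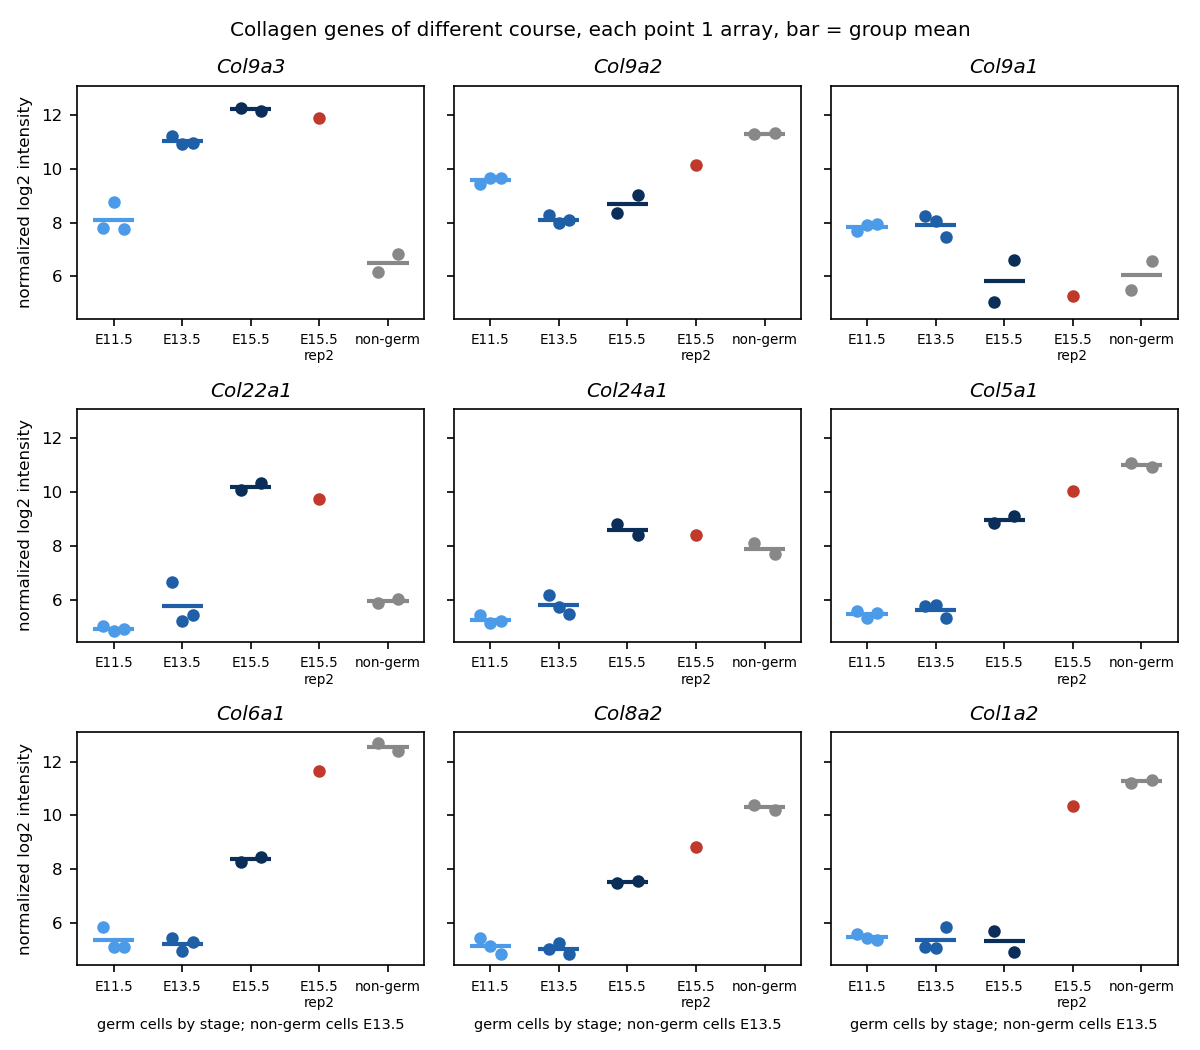
Normalized log2 intensity of 9 collagen genes on each array (points), by germ cell stage, with E15.5 replicate 2 in a column of its own and non-germ cells last; bars are group means. Col9a3 climbs at each stage and is low in non-germ cells, Col22a1 is high at E15.5 alone, and Col5a1, Col6a1 and Col8a2 rise at E15.5 to below their non-germ levels, while Col1a2 stays low in the E15.5 pair and reads 10.34 in replicate 2.

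Between E11.5 and E13.5 few collagen genes changed in germ cells. Of the 32, 2 were higher at E13.5 (Col9a3 and Col13a1) and 2 lower (Col9a2 and Col18a1), and 28 were not called. Over all genes 12.4% were higher and 9.98% lower. The median difference was -0.10, beside 0.01 over all genes, and 18 of the 32 genes were detected on no array of either stage. The E13.5 arrays detected 5, 4 and 9 of the 32 genes and the E11.5 arrays 9, 7 and 6. Of all probes the arrays detected 14860, 16357 and 16165 at E13.5, and 15941, 15622 and 16573 at E11.5. With E15.5 replicate 2 in its group, 1 was higher and 2 were lower, beside 9.98% and 7.29% of all genes. The stages also differ in labelled sex, which cannot be told apart from time in this interval.

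Col9a3, on fibril surfaces, was the gene that rose most among those detected at both stages. It read 11.23, 10.91 and 10.97 at E13.5, against 7.82, 8.77 and 7.76 at E11.5, with no overlap, a difference of 2.92 ± 0.28 (adjusted p = 6.43e-05). Col9a2 moved the other way, with 8.28, 7.98 and 8.09 at E13.5, against 9.43, 9.67 and 9.66 at E11.5 (-1.47 ± 0.19, adjusted p = 0.000415). Col9a1 read 8.24, 8.05 and 7.45 at E13.5 and 7.70, 7.90 and 7.94 at E11.5, overlapping, with a difference of 0.07 ± 0.39.

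Col18a1 fell by 0.93 on the log2 scale (SE 0.18, adjusted p = 0.00459), its E13.5 values of 8.26, 7.72 and 8.34 lying below the 9.04, 9.11 and 8.97 of E11.5. Its second probe gave -0.90 and was also called. Col13a1, detected on 1 of 3 E13.5 arrays and on no E11.5 array, was called higher with no fold given (adjusted p = 0.0454), a call that held under 5 of 21 alternative settings. Col3a1 read 4.93, 5.14 and 6.53 at E13.5, against 7.97, 5.90 and 6.69 at E11.5, with overlap, and was not called (-1.32 ± 0.51, adjusted p = 0.0957). Without E11.5 replicate 2 it was called (-1.81, adjusted p = 0.0341), as it was without E13.5 replicate 3 (-1.82, adjusted p = 0.0292).

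**Figure D4:**
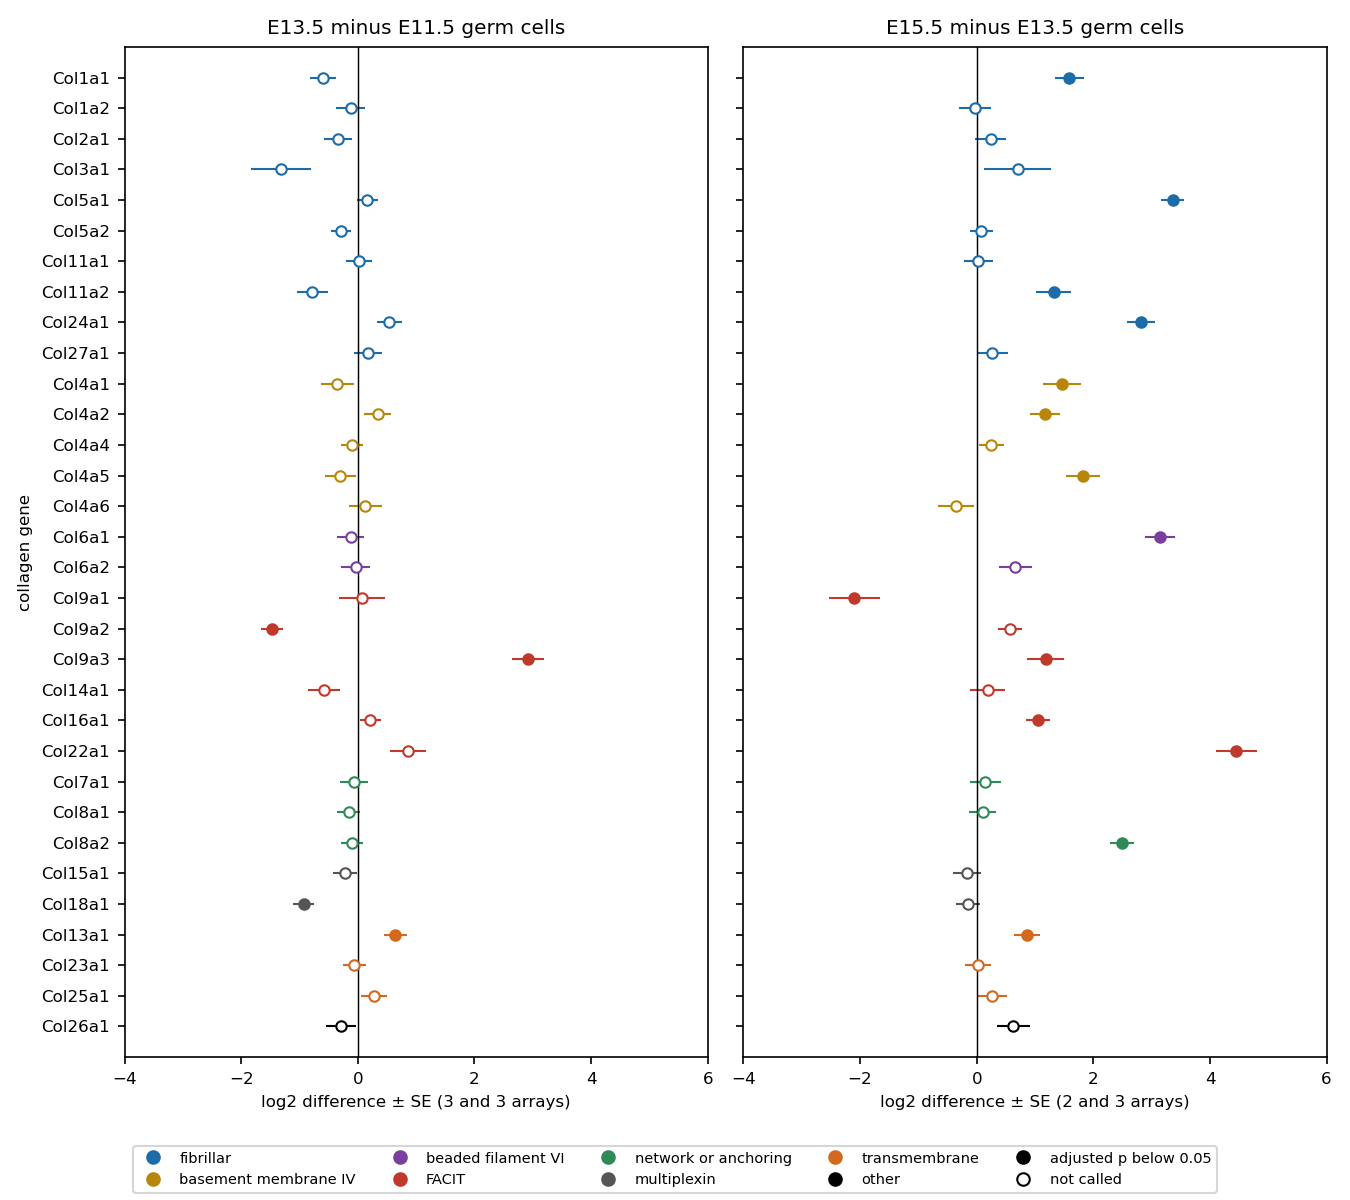
Log2 difference of mean intensity ± SE in germ cells for each tested collagen gene, E13.5 minus E11.5 (left, 3 and 3 arrays) and E15.5 minus E13.5 (right, replicates 1 and 3 against 3 arrays); filled points have an adjusted p below 0.05. The filled points on the left are Col9a3 and Col13a1 above 0 and Col9a2 and Col18a1 below it, and on the right 13 filled points lie above 0, among them Col22a1 at 4.45, with Col9a1 at -2.10 on the other side; where a stage did not detect a gene the point is the fitted value, not a bound.

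Between E13.5 and E15.5, 13 collagen genes were higher at E15.5, 1 was lower and 18 were not called. Over all genes 21.6% were higher and 21.1% lower. The median difference was 0.60, beside 0.01 over all genes, and 0.18 with undetected genes at their bound or at 0, and Col16a1 at the 1.08-fold value given below. E15.5 replicates 1 and 3 detected 16 and 22 of the 32 genes. Of all probes they detected 14865 and 17735, with lowest detected values of 6.342 and 5.859, so their limits of detection differ. Col16a1 was detected at 6.26 in replicate 3 but not at 6.30 in replicate 1. With E15.5 replicate 2 in its group, 15 genes were higher and 1 lower (20.7% of all genes each way), which kept the same 14 genes and added Col9a2 and Col26a1.

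Col22a1, by the only probe of it that passed the filter, was low before E15.5 and high there. A second Col22a1 probe was detected on no array and read 4.76 and 4.80 in the E15.5 pair. The values of the kept probe follow. It read 10.07 and 10.35 at E15.5, against 6.66, 5.22 and 5.41 at E13.5 (4.45 ± 0.35, adjusted p = 1.15e-05). E11.5 values were 5.01, 4.82 and 4.89. Replicate 2 read 9.75, with the other E15.5 arrays and far above the 5.88 and 6.01 of non-germ cells. Against E11.5, where no array detected it, Col22a1 was at least 17.1-fold higher at E15.5 (adjusted p = 1.83e-06).

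Col9a3 continued upward, to 12.27 and 12.16 at E15.5, against 11.23, 10.91 and 10.97 at E13.5 (1.18 ± 0.31, adjusted p = 0.0118). Replicate 2 read 11.88. Without E15.5 replicate 1 the call was lost (1.12, adjusted p = 0.0669). Over the whole span from E11.5 the difference was 4.10 ± 0.31 (adjusted p = 3.79e-06), a 17.2-fold rise.

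Its partner Col9a1 was the gene that fell. It read 5.04 and 6.60 at E15.5, against 8.24, 8.05 and 7.45 at E13.5 (-2.10 ± 0.44, adjusted p = 0.00358), and 5.27 in replicate 2. The second, dimmer Col9a1 probe gave -0.67, not called. Col9a2 read 8.36 and 9.01 at E15.5, against 8.28, 7.98 and 8.09 at E13.5 (0.57 ± 0.21, adjusted p = 0.055). It missed the threshold under 14 of 21 alternative settings and was called higher under the others, among them without E15.5 replicate 1 (0.90, adjusted p = 0.0123), with replicate 2 in the group (1.06, adjusted p = 0.0341) and under cyclic loess normalization (0.73, adjusted p = 0.0216). Its replicate 2 value of 10.15 lay between the other germ arrays and the non-germ values of 11.29 and 11.33. Against E11.5 it was lower at E15.5 (-0.90 ± 0.21, adjusted p = 0.00501), but not with replicate 2 in the group (-0.41, adjusted p = 0.366) or without replicate 1 (-0.57, adjusted p = 0.0614).

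Among the fibrillar genes, Col5a1, Col24a1, Col1a1 and Col11a2 were higher at E15.5, 4 of 10, where 21.6% of all genes were. Col5a1 read 8.86 and 9.10 at E15.5, against 5.74, 5.81 and 5.30 at E13.5, at least 7.01-fold higher (adjusted p = 2.05e-06). Col24a1, a fibrillar collagen known from developing bone and eye, read 8.81 and 8.41 at E15.5, against 6.17, 5.73 and 5.46 at E13.5, at least 5.44-fold higher (adjusted p = 1.71e-05), and its second probe was at least 4.01-fold higher. Its E15.5 values lay above the 8.09 and 7.70 of non-germ cells, and replicate 2 read 8.41.

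Col1a1 was at least 1.72-fold higher at E15.5, at 7.003 and 6.89, against 5.21, 5.70 and 5.16 at E13.5 (adjusted p = 0.000655). Col11a2 was at least 1.29-fold higher (adjusted p = 0.00561). The partner chains did not show the same: Col1a2 and Col5a2 were not called and were detected on no array of either stage, so a change below the limit of detection would not be seen. Col3a1 read 6.08 and 6.38 at E15.5 and was not called (0.70 ± 0.57, adjusted p = 0.368). Whether partners differ from each other was not tested.

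Of the 5 type IV chains, 3 were higher at E15.5 (60%, beside 21.6% of all genes), and no E13.5 germ array detected any of the 3. Col4a1 read 6.67 and 7.27 at E15.5, at least 1.74-fold higher (adjusted p = 0.00489). Col4a2 read 6.64 and 6.64, at least 1.39-fold higher (adjusted p = 0.00505), and Col4a5 6.74 and 7.09, at least 1.68-fold higher (adjusted p = 0.000699). All 3 stayed far below their non-germ levels.

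Col6a1 read 8.28 and 8.46 at E15.5, against 5.43, 4.97 and 5.28 at E13.5, at least 4.61-fold higher (adjusted p = 1.33e-05), and its second probe, detected at neither stage, was called higher too (adjusted p = 0.0026), though not with replicate 2 in the group (adjusted p = 0.0616). Its neighbour and partner Col6a2 read 5.65 and 6.33 and was not called (0.66 ± 0.28, adjusted p = 0.0921). It was called without E15.5 replicate 1 (1.02, adjusted p = 0.0439), without E11.5 replicate 1 (0.66, adjusted p = 0.0407) and under cyclic loess normalization (0.89, adjusted p = 0.0176). Col8a2 read 7.48 and 7.56 at E15.5, against 5.01, 5.24 and 4.83 at E13.5, at least 2.56-fold higher (adjusted p = 1.61e-05), whereas Col8a1 was detected on no array of either stage and was not called.

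Smaller rises were called for Col16a1 and Col13a1. The Col16a1 mean at E15.5 was 1.08-fold above the E13.5 limit of detection, but it includes the undetected replicate 1 and is no lower bound. Col13a1 differed by 0.86 ± 0.22 (adjusted p = 0.0114) and lost the call without E15.5 replicate 3 (adjusted p = 0.0657). The remaining tested genes were not called in this interval. Among them Col18a1 differed by -0.15 ± 0.20, Col25a1 by 0.27 ± 0.25 and Col2a1 by 0.24 ± 0.27. Besides Col1a2, Col5a2 and Col8a1, 6 more genes were detected on no array of either stage, namely Col4a4, Col7a1, Col11a1, Col14a1, Col15a1 and Col23a1. Col26a1 and Col27a1 were each detected on 1 of the E15.5 pair and on no E13.5 array, and Col4a6 on 1 E13.5 array alone.

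Markers of other cells also moved at E15.5 on the arrays of the pair. Pdgfra, a receptor of interstitial progenitors, read 9.80 and 10.04 at E15.5, against 6.39, 6.74 and 7.34 at E13.5. Sox9, of Sertoli cells, read 9.86 and 10.53, against 5.00, 6.54 and 8.36, and the globin Hbb-bt 9.63 and 8.83, against 5.63, 7.73 and 6.86. Of the Sertoli list, Sox9, Mro and Aard were detected on both arrays of the pair, and Dhh, Cst9, Fgf9 and Ptgds on 1. Amh, Gata4, Nr5a1 and Sox10 of that list were detected on neither. The interstitial genes Lum, Dcn, Nr2f2 and Tcf21 were not detected on either array of the pair, where they read at most 5.76, against 9.785 to 12.07 in non-germ cells. Over the whole lists, summed Sertoli signal was 1788 and 3435 at E15.5, against 718, 948 and 2174 at E13.5. It was 3371, 3698 and 3336 at E11.5, where the brightest gene of that list, Aard, read 11.52, 11.70 and 11.53. Sertoli markers were detected for 3 and 7 of 11 genes at E15.5, against 1, 2 and 4 at E13.5 and 2, 1 and 1 at E11.5. Summed interstitial signal was 1775 and 1958 at E15.5, against 1103, 995 and 1061 at E13.5. Summed erythroid signal was 1095 and 792, against 197, 349 and 259, with the globins Hba-x and Hbb-y detected on neither array of the pair. Summed endothelial signal was 647 and 655 at E15.5, against 428, 463 and 532 at E13.5, and 644, 602 and 579 at E11.5. Endothelial markers were detected for 1 and 2 of 10 genes at E15.5, against 1, 2 and 1 at E13.5. The part of these cells in the collagen rises was not tested.

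Taking the whole span, 12 collagen genes were higher at E15.5 than at E11.5 and 3 lower (Col9a1, Col9a2 and Col18a1), where 26.1% of all genes were higher and 24.1% lower. With E15.5 replicate 2 in its group, 12 were higher and 2 lower, beside 25.4% and 23.7% of all genes. The median difference was 0.39, beside 0.01 over all genes, and 0.00 with undetected genes at their bound or at 0. This comparison shares arrays with the other 2 and adds no separate evidence to them. No E11.5 array detected 9 of the 12. Of these, Col16a1 had a mean 1.12-fold above the E11.5 limit that again includes an undetected reading. The rest were higher by at least 17.1-fold for Col22a1, 7.25-fold for Col5a1, 5.62-fold for Col24a1, 4.77-fold for Col6a1, 2.65-fold for Col8a2, 1.74-fold for Col4a5, 1.73-fold for Col13a1 and 1.44-fold for Col4a2. The other 3 were Col9a3 (4.10 ± 0.31), Col4a1 (1.11 ± 0.32) and Col1a1 (0.99 ± 0.25), the last 2 detected on 1 of 3 E11.5 arrays each. Col4a1 lost its call without E11.5 replicate 2 (adjusted p = 0.051) or E15.5 replicate 3 (adjusted p = 0.13), and Col18a1 fell by 1.08 (SE 0.20, adjusted p = 0.00116).

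E15.5 replicate 2 differed from the other E15.5 arrays in most of the family. It detected 27 of the 32 genes, and 18657 of all probes, the most of any array. It lay above all 8 other germ arrays for 20 of the 32 (62.5%), beside 14.7% of all genes. For 26 (81.2%) it lay below both non-germ arrays, beside 44.6% of all genes. Col3a1 read 12.46 in replicate 2, 6.08 and 6.38 in replicates 1 and 3, and 13.23 and 13.05 in non-germ cells. Col1a1 read 10.85 there, 7.003 and 6.89 in the pair, and 11.69 and 11.64 in non-germ cells. Col6a1 likewise read 11.66, against 8.28 and 8.46 in the pair and 12.69 and 12.39 in non-germ cells. In each case the array lay between the germ pair and the non-germ arrays and nearer the non-germ ones.

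Replicate 2 lay above both non-germ arrays in the 6 other members: Col2a1, Col9a3, Col11a2, Col22a1, Col24a1 and Col25a1. These were 18.8% of the 32 genes, and the share over all genes was not counted. Col2a1, Col11a2 and Col25a1 lay near the limit of detection there, at 6.268, 5.972 and 5.909. With replicate 2 in the group, E15.5 minus E13.5 fitted differences were larger for 22 of the 25 collagens called lower in E13.5 germ cells. Those 25 were picked in these data as higher in non-germ cells, and the same count was not made over all genes. Examples were Col6a1 (4.24, against 3.14 without replicate 2) and Col1a1 (2.89, against 1.59). The differences were not larger for Col11a1, Col13a1 (0.69, against 0.86) and Col24a1 (2.75, against 2.82). Col3a1 then differed by 2.77 and was not called (adjusted p = 0.129).

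**Figure D5:**
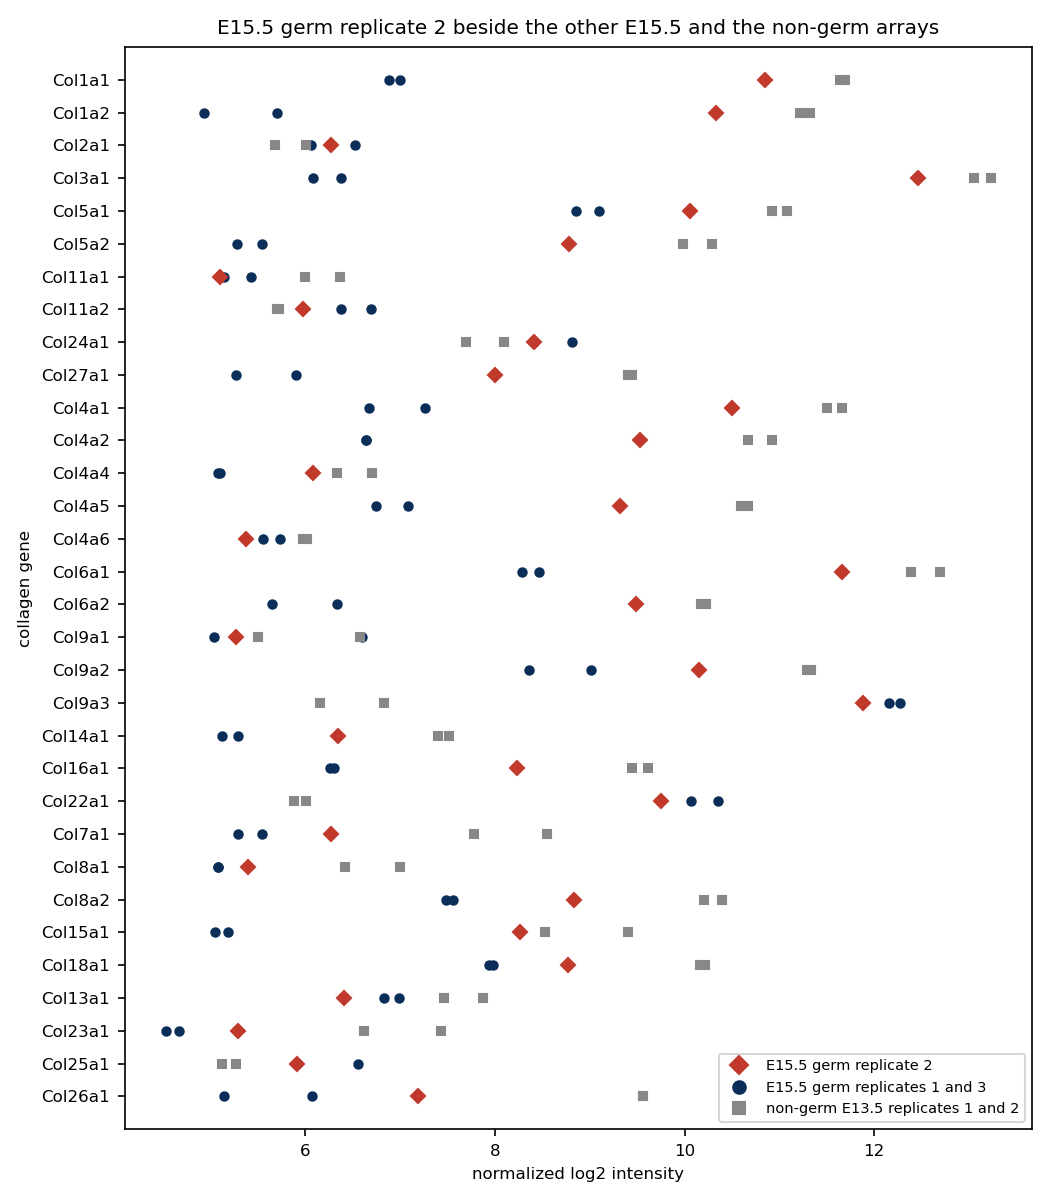
Normalized log2 intensity of the 32 tested collagen genes in E15.5 germ replicate 2 (diamonds), E15.5 germ replicates 1 and 3 (circles) and the non-germ E13.5 arrays (squares). For most genes the diamond lies between circles and squares, as for Col3a1 at 12.46, and for Col9a3, Col22a1 and Col24a1 it lies with the circles.

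Genes that make, cross-link, bind or degrade collagen were followed as companions. Of 21 modifying enzymes and chaperones 18 were measured, and at E13.5 12 were lower and 1 higher in the germ cells, against the non-germ fraction (66.7% and 5.56% of the 18), beside 27.5% lower and 31.7% higher of all genes. P3h3, a collagen prolyl hydroxylase family member, was at least 5.27-fold lower, and Fkbp14, a prolyl isomerase of the endoplasmic reticulum, at least 6.77-fold lower. Serpinh1, the collagen chaperone HSP47, read 9.73, 9.73 and 9.65 in germ cells, against 11.47 and 11.70 in non-germ cells (-1.88 ± 0.18, adjusted p = 1.01e-05). The gene that was higher, Tmem38b, an endoplasmic reticulum cation channel, differed by 0.63 (adjusted p = 0.0491), a call lost with E15.5 replicate 2 in its group (adjusted p = 0.078).

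At E15.5 against E13.5, 3 of these 18 were higher and 4 lower (16.7% and 22.2%), near the 21.6% and 21.1% of all genes. Serpinh1 read 7.48 and 7.65 at E15.5, against 9.73, 9.73 and 9.65 at E13.5 (-2.14 ± 0.18, adjusted p = 1.78e-05). Replicate 2 read 10.47 there, above every E13.5 value, and with it in the group the call was lost (-1.17, adjusted p = 0.152). Colgalt1, which adds galactose to collagen hydroxylysine, read 5.61 and 6.56 at E15.5, against 8.82, 9.12 and 9.07 at E13.5 (-2.92 ± 0.25, adjusted p = 1.79e-05). Crtap, of the prolyl 3-hydroxylase complex, was at least 2.21-fold lower (adjusted p = 7.57e-05). P3h2, detected on no E15.5 array of the pair and on 1 of 3 E13.5 arrays, was also called lower, with no fold given. The 3 that rose were Fkbp14 (at least 1.68-fold), Tmem38b (1.07) and the lysyl hydroxylase Plod2 (0.91). In replicate 2 Colgalt1 read 7.69, above the E15.5 pair. At E13.5 against E11.5, Serpinh1 was higher (0.75), a call lost with E15.5 replicate 2 in its group (adjusted p = 0.469), and Fkbp14 at least 1.67-fold lower. These were 1 gene each way of 18, fewer than the 12.4% and 9.98% of all genes.

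Among genes of extracellular processing, 3 of 8 propeptide-processing genes were measured. The procollagen proteinase Bmp1 was at least 24.7-fold and its enhancer Pcolce at least 8.08-fold lower in germ cells at E13.5. Pcolce2, a related enhancer, was called higher in germ cells, and read 5.16, 6.11 and 6.56 at E13.5, against 8.00, 8.14 and 8.09 at E11.5 (-2.13 ± 0.29, adjusted p = 0.000627). Its E13.5 germ mean was 1.09-fold above the non-germ limit of detection, but it includes an undetected reading and is no lower bound. Of 5 lysyl oxidases, which cross-link fibrils, 2 were measured and both were lower in germ cells, beside 27.5% of all genes. Lox was at least 13.1-fold and Loxl1 at least 3.27-fold lower. At E15.5 against E13.5 Lox passed the test (adjusted p = 0.0393), but it was detected on 1 of 2 E15.5 arrays and on no E13.5 array, no fold is given, and the call was lost with replicate 2 in the group (adjusted p = 0.0606).

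All 8 measured turnover genes (10 on the list) were lower in E13.5 germ cells than in the non-germ fraction, where 27.5% of all genes were. They included the gelatinase Mmp2 (-5.76 ± 0.30) and the metalloproteinase inhibitor Timp2 (-5.67 ± 0.32). At E15.5 against E13.5 2 of 8 were higher (25%, beside 21.6% of all genes), Mmp2 (2.29 ± 0.30) and the gelatinase Mmp9 (at least 2.93-fold), and none was lower. At E13.5 against E11.5, 2 of 8 were lower, beside 9.98% of all genes. Timp1 was at least 2.86-fold lower, and Timp2 differed by -0.95, a call lost with E15.5 replicate 2 in its group (adjusted p = 0.492). Mmp2 read 8.37 and 8.98 at E15.5, against 6.71, 5.98 and 6.47 at E13.5, with 10.58 in replicate 2 and 12.12 and 12.18 in non-germ cells.

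Collagen receptors were measured for 4 of 9 genes, and all 4 were lower in E13.5 germ cells than in their non-germ counterparts, from -1.39 for the integrin chain Itgb1 to -2.06 for Ddr1, a receptor tyrosine kinase that binds collagen, where 27.5% of all genes were lower. At E15.5, 2 of the 4 were higher than at E13.5 and none lower, beside 21.6% and 21.1% of all genes. Ddr1 read 11.37 and 11.34 at E15.5, against 9.08, 8.10 and 7.71 at E13.5 (3.06 ± 0.33, adjusted p = 6.4e-05), above the 10.34 and 10.38 of non-germ cells, and 11.22 in replicate 2. The collagen-binding integrin chain Itga11 read 7.34 and 7.09 at E15.5, against 5.11, 4.84 and 5.02 at E13.5, at least 2.07-fold higher, with 6.56 in replicate 2 and 6.27 and 6.60 in non-germ cells.

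The 12 fibril-associated and basement membrane partner proteins were all measured, and 10 were lower in germ cells of E13.5 than in the GFP-negative cells (83.3%, beside 27.5% of all genes). The small proteoglycans Lum and Bgn were at least 56.6-fold and 57.4-fold lower. At E15.5 against E13.5, 1 was higher (8.33% of the 12), Postn (at least 2.18-fold, adjusted p = 0.00199), and 2 were lower (16.7%), both below the 21.6% and 21.1% of all genes. Nid2, which links laminin to type IV collagen, read 7.01 and 7.19 at E15.5, against 9.71, 9.55 and 9.46 at E13.5 (-2.47 ± 0.16, adjusted p = 3.76e-06), with 8.08 in replicate 2, and fibronectin, Fn1, differed by -1.82 ± 0.16. Sparc, a collagen-binding matrix protein, was lower at E13.5 than at E11.5 (-2.87 ± 0.36, adjusted p = 0.000341) and Fn1 higher (0.51 ± 0.15, adjusted p = 0.0333).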

How the data were processed

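Sorted-cell RNA was treated with DNase on the column, and amplified cDNA was biotin-labelled, per the labels' protocols. In the main deposited table each probe has a linear, non-normalized signal intensity, and beside it the detection p-value that the authors deposited for each probe on each array. A second deposited table gives each array's intensity after a linear rescaling, with medians of 315.07 to 341.75 and no centring; how they were scaled is not given in the sources used here, and neither are slides or scan dates. Depth does not apply to arrays, and their number limits the precision.

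In R 4.3.3 with limma 3.58.1, neqc corrected background from the detection p-values (offset 16), quantile-normalized the 11 arrays and returned log2 values. Probes detected at p below 0.01 on at least 2 arrays were kept (21943, for 11598 named genes), and each gene was represented by its kept probe of highest mean. One linear model held the 4 groups and a coefficient for E15.5 replicate 2, with 6 residual and 4.46 prior degrees of freedom, and tests were two-sided. Where several probes of a gene were kept (15 genes), 52 of 60 gene comparisons had the same call and 0 had opposite calls. The steps were tested on simulated data. In the 4 comparisons, 32% to 41% of simulated log2 changes of 1 were called, and 82% to 91% of changes of 2. A gene that was not called can therefore still differ.

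Members, lists and the separate treatment of E15.5 replicate 2 were chosen with earlier results of these data known. Genes given on every array were, per class, the brightest and those of largest rise or fall past the threshold in each comparison, plus their partner chains. Alternatives were other background correction, normalization, filters, designs and the leaving out of arrays. Replicate numbers were not used to pair samples in the main fit. Over 12 same-numbered pairs, deviations from group means correlated at -0.0995 to 0.0927, beside -0.133 to 0.085 for pairs of unlike number. With so few arrays per group, these correlations cannot show whether samples were paired. Promoter sequences are RefSeq's (GRCm38.p6). The deposited data name no genome build and give no gene coordinates, so those printed above are RefSeq's.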

Additional observations from a re-analysis of the deposited data

Results flagged for a closer look

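In E15.5 germ replicate 2, which the comparisons leave out of the E15.5 group, 6 collagen genes had a signal above that of both non-germ control arrays. The share of all genes above both was not counted, so this number has no background rate beside it. Col2a1, Col11a2 and Col25a1 lay near the limit of detection. Col9a3 read 11.88 in replicate 2, 12.27 and 12.16 in the E15.5 pair (replicates 1 and 3), and 6.16 and 6.83 in non-germ cells. Col22a1 read 9.751 in replicate 2, 10.07 and 10.35 in the other E15.5 arrays, and 5.88 and 6.01 in non-germ cells. Col24a1 read 8.407 in replicate 2, 8.81 and 8.41 in the pair, and 8.09 and 7.70 in non-germ cells. Col11a2 read 5.972 in replicate 2, 6.69 and 6.37 in the pair, and 5.70 and 5.72 in non-germ cells. Col2a1 read 6.268 in replicate 2, 6.52 and 6.06 in the pair, and 5.68 and 6.00 in non-germ cells. Col25a1 read 5.909 in replicate 2, 6.56 and 5.90 in the pair, and 5.26 and 5.12 in non-germ cells.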

How the results depend on the processing

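No result changed direction past the threshold under the alternatives run, and most counts stayed within 1.5 times. The 2 genes higher at E13.5 than at E11.5 became 1, losing Col13a1, without background correction, under cyclic loess, without the detection filter, with E15.5 replicate 2 in its group, with only the 2 groups fitted, and with the replicate number as a block; the block changed no other call. Without the detection filter, 5 of 41 collagen genes were higher in germ cells against non-germ cells (main 3), and 2 were lower at E15.5 than at E13.5 (main 1). Leaving out 1 array at a time gave 1 to 3 higher (1 without non-germ replicate 1) and 21 to 26 lower genes in germ against non-germ cells. For E13.5 against E11.5 it gave 1 to 2 higher and 2 to 4 lower, the 4 without E11.5 replicate 2 or E13.5 replicate 3. For E15.5 against E13.5 it gave 12 to 15 higher and 1 lower, and for E15.5 against E11.5 12 to 14 higher and 2 to 4 lower. Cyclic loess moved the median of all genes by -0.23 in germ against non-germ cells, with 40.3% of calls higher in place of 53.5%, and the collagen median to -3.27. Signal near the detection limit sets what can be read from Col2a1, Col4a4, Col4a6, Col11a1, Col11a2 and Col25a1.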
